A study of Mus musculus with 6 samples.

Results

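The 10 genes described here encode the transforming growth factor beta (TGF-beta) ligands (Tgfb1, Tgfb2 and Tgfb3), their receptors (Tgfbr1, Tgfbr2 and Tgfbr3) and the latent TGF-beta binding proteins (Ltbp1, Ltbp2, Ltbp3 and Ltbp4). They were taken by gene symbol from the 55487 genes of a mouse RNA-sequencing count table, and all 10 passed the filter on low counts. Wild-type mouse embryonic fibroblasts (MEFs), cells grown out of mouse embryos, were sequenced as polyadenylated RNA at passage 1 (P1, labelled non-senescent) and at passage 6 (P6, labelled senescent). At each passage the cells received vehicle, 20 µM α-amyrin or 20 µM β-amyrin for 3 days, and 1 library was made per condition, 6 in all. α-Amyrin and β-amyrin are plant pentacyclic triterpene alcohols, isomers that differ in where a methyl group sits on the outermost ring. The labels name neither the mouse strain nor the embryo age nor the vehicle, and they do not say whether the P6 cells descend from the P1 cells. No condition has a replicate, so the p-values below measure only the spread that passage and compound leave unexplained among these 6 libraries.

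TGF-beta is made as a precursor whose propeptide stays attached to the mature dimer and keeps it inactive. In fibroblasts this latent complex is bound covalently by an LTBP, which anchors it to fibronectin and fibrillin in the extracellular matrix, and integrins, thrombospondin and proteases release the active ligand. The freed ligand assembles the type II receptor Tgfbr2 with the type I kinase Tgfbr1, which phosphorylates Smad2 and Smad3, whereas Tgfbr3 (betaglycan) is a proteoglycan co-receptor that presents ligand, Tgfb2 above all, to Tgfbr2. In fibroblasts the pathway is best known for raising matrix and contractile genes.

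On the mm10 build, the ligand genes lie at chr7:25687002-25705077 on the plus strand (Tgfb1), chr1:186622792-186705989 on the minus strand (Tgfb2) and chr12:86056745-86079041 on the minus strand (Tgfb3). The receptor genes lie at chr4:47353222-47414931, plus strand (Tgfbr1), chr9:116084293-116175360, minus strand (Tgfbr2) and chr5:107106570-107289629, minus strand (Tgfbr3). The LTBP genes lie at chr17:75005568-75392512, plus strand (Ltbp1), chr12:84783212-84876532, minus strand (Ltbp2), chr19:5740904-5758532, plus strand (Ltbp3) and chr7:27305136-27337692, minus strand (Ltbp4).

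RefSeq (GRCm38.p6, the assembly of mm10) gave a start site for 8 of the 10 genes, in 12 promoter windows of 250 bases before the start. The table used here held no window for Tgfb3 or Tgfbr3. Windows of 4 genes are printed, 5′ to 3′ on the strand of the gene, because these genes carry the passage results below: Tgfb1 and Tgfb2 are the ligands that were higher at P6, and Ltbp3 and Ltbp4 are the members with the largest rise and the largest fall. Capitals mark matches, on either strand, to 7 motifs: the TATA box TATAAA, the CCAAT box, the GC box GGGCGG, the AP-1 site TGANTCA, the E-box CACGTG, the SMAD palindrome GTCTAGAC and the CAGA box AGCCAGAC. Overlapping GC boxes were each counted.
Tgfb1, chr7:25686752-25687001, plus strand: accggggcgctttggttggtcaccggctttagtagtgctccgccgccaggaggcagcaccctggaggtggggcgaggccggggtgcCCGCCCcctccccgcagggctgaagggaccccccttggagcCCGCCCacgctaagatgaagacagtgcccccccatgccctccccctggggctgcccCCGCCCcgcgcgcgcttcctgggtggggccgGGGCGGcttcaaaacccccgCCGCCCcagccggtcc
Tgfb2, chr1:186705990-186706239, minus strand: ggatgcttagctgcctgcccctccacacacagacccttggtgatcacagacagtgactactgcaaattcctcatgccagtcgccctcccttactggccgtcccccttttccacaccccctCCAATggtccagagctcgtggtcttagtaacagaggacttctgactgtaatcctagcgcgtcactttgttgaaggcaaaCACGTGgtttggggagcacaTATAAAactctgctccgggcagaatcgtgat
Ltbp3, chr19:5740650-5740899, plus strand: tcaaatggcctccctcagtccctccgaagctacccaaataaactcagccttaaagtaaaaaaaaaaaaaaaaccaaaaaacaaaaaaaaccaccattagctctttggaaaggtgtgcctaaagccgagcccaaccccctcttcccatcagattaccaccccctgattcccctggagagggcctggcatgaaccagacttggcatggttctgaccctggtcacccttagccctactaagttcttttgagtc
Ltbp4, chr7:27333664-27333913, minus strand: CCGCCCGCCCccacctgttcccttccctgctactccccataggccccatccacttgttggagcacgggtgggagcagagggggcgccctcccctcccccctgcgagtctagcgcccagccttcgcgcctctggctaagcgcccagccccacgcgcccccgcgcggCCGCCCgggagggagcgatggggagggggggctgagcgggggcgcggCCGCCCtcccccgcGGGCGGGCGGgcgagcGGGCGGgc
The Tgfb1 window was 75.2% G and C and held 5 GC boxes and none of the other motifs. The Tgfb2 window was 53.6% G and C, with a TATAAA match 31 bases, an E-box 51 bases and a CCAAT match 130 bases before the start, and no GC box. The Ltbp3 window, at 47.2% G and C, held none of the 7 motifs. The printed Ltbp4 window, at 79.2%, held 7 GC boxes. It lies inside the gene, and RefSeq gives 3 starts for Ltbp4 that gene-level counts cannot tell apart. The Ltbp4 window at chr7:27333649-27333898, not printed, was also 79.2% G and C and held 5 GC boxes. The outermost window, chr7:27337613-27337862, also not printed, was 64.4% G and C and held 3 GC boxes and 2 CCAAT matches. Among all 32851 RefSeq windows of the same length, 32.7% held a GC box, 33.8% CCAAT, 12.4% TATAAA, 6.75% the AP-1 site, 6.02% the E-box, 1.05% the CAGA box and 0.167% the SMAD palindrome. A match is a description of the letters only.

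The libraries held 18798418 to 28752332 counts, of which 1.55% to 1.81% were mitochondrial, and the members had 563 to 28271 counts per library. Levels of a gene across libraries are given as counts scaled to library size by the trimmed mean of M values (CPM). Of the 10 fibroblast markers checked none was at 0, with summed levels of 25459 to 30022 CPM at P1 and 22041 to 26635 at P6, and 8 of the 10 were lower at P6. Macrophage markers moved with passage: all 19 were higher at P6, and their summed level was 406 CPM in P1 vehicle, 358 in P1 α-amyrin and 48.1 in P1 β-amyrin against 5833, 5949 and 4136 at P6. All 9 mesothelial markers were lower, from 172 to 211 CPM summed at P1 to 9.52 to 11.1 at P6. The summed levels of endothelial markers (33.6 to 34.2 CPM at P1, 9.56 to 12.5 at P6), muscle markers (195 to 202 at P1, 32.7 to 47.9 at P6, with Myod1 and Myog at 0 in all P6 libraries) and cartilage markers (438 to 491 at P1, 109 to 171 at P6) were also lower. The sums of epithelial markers (3.09 to 3.54 CPM at P1, 0.30 to 0.95 at P6) and neural markers (80.4 to 85.0 and 66.1 to 74.4) followed the same direction. Single markers did not all do so. Of 4 tested neural markers 3 were called lower and 1, Map2, higher (edgeR log2 change 0.79). Of 5 tested cartilage markers 4 were called lower and 1, Matn4, higher (1.40). Of 5 senescence and proliferation markers, Cdkn2a was higher at P6 (17.2 to 19.4 CPM at P1, 115 to 116 at P6), Lmnb1, Mki67 and Top2a were lower (edgeR log2 changes −2.04, −0.92 and −1.29), and Cdkn1a was not called (0.01). The macrophage, mesothelial, endothelial, muscle and cartilage sums separate every P6 library from every P1 library, so passage and cell makeup cannot be told apart in the results on passage below. In bulk RNA, a lower level from fewer cells of a type also cannot be told apart from less RNA per cell.

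Between genes, levels were compared per length, in the FPKM values the authors deposited (fragments scaled to gene length and library size), as means over the 3 libraries of a passage with the SD over those libraries, which differ in treatment. At P1, Ltbp2 (107 ± 13.7 FPKM, SD, n = 3) and Tgfb3 (97.6 ± 15.1) were the highest of the 10, and their ranges overlapped. Below them came Ltbp1 (46.1 ± 2.58), Tgfbr2 (32.8 ± 6.47) and Ltbp3 (24.8 ± 1.83), each separated from its neighbours. Tgfb2 (13.7 ± 1.65), Tgfbr1 (13.0 ± 0.53) and Tgfb1 (10.9 ± 1.40) formed a group in which each neighbour overlapped the next, and Ltbp4 (8.81 ± 0.27) and Tgfbr3 (8.41 ± 3.84) overlapped at the bottom. At P6 the order was Ltbp2 (133 ± 9.24 FPKM), Tgfb3 (73.8 ± 4.81), Ltbp1 (55.8 ± 2.37), Ltbp3 (49.8 ± 1.01) and Tgfbr2 (35.7 ± 4.24), with no overlap between neighbours. Tgfbr1 (18.7 ± 3.31), Tgfb2 (17.7 ± 3.40) and Tgfb1 (15.2 ± 1.18) again overlapped as neighbours, above Tgfbr3 (6.16 ± 1.12) and Ltbp4 (4.61 ± 0.17), which did not overlap. Ltbp3 therefore stood below Tgfbr2 at P1 and above it at P6, and Ltbp4 moved to the lowest place.

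The first comparison was P6 against P1, the contrast of senescent with non-senescent cultures. Of the 10 members, 6 were higher at P6 (Tgfb1, Tgfb2, Tgfbr1, Ltbp1, Ltbp2 and Ltbp3), 3 were lower (Tgfb3, Tgfbr3 and Ltbp4), and Tgfbr2 did not pass the test. DESeq2 called the same 9 members. The test was edgeR's quasi-likelihood test with passage and treatment as additive terms, called at a Benjamini-Hochberg adjusted p below 0.05 over 16962 genes. So many genes differed between the passages that 59.2% of all tested genes were called, 30.0% higher and 29.1% lower, and DESeq2 called 48.7%. The members' median absolute log2 change was 0.38, the same to 2 decimals as over all genes tested, and their median signed change was 0.31 against 0.00. By level alone, 6 of the 10 members had P1 and P6 libraries that did not overlap in CPM, 5 higher at P6 and 1 lower. Among all tested genes 64.7% did not overlap, 32.5% higher and 32.2% lower. Set against the P1 library of the same treatment, 1 member reached 2-fold in each pair: Ltbp4 in vehicle (log2 ratio −1.03), Ltbp3 in α-amyrin (1.02) and Ltbp3 in β-amyrin (1.07), where 13.2%, 13.5% and 13.4% of genes of at least 5 CPM did.

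**Figure D1:**
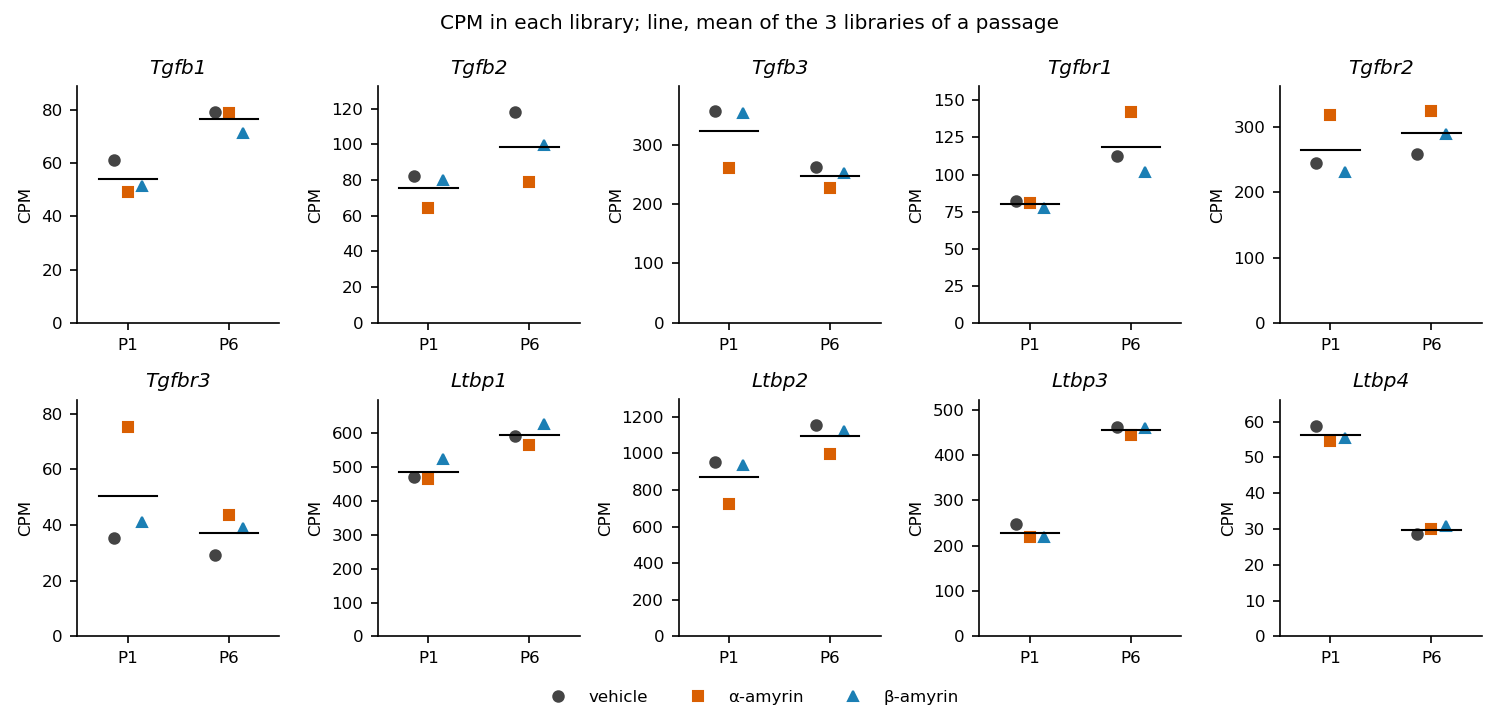
CPM of each member in each library (vertical axis, from 0, one scale per gene) at P1 and P6, with circles for vehicle, squares for α-amyrin, triangles for β-amyrin and a line at the mean of the 3 libraries of a passage. Ltbp3 (fitted log2 change 1.00) and Ltbp4 (−0.91) separate the passages most, in opposite directions, whereas Tgfb2, Tgfb3, Tgfbr2 and Tgfbr3 overlap between passages.

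Among the ligands, Tgfb1, the isoform best known from fibrosis and immune regulation, had 61.1 CPM in P1 vehicle, 49.0 in P1 α-amyrin and 51.2 in P1 β-amyrin, and 79.2, 78.6 and 71.1 CPM in the P6 libraries in the same order. All P6 libraries lay above all P1 libraries, and the fitted rise was 0.51 ± 0.07 (log2, SE; edgeR adjusted p = 0.000671). In P1 β-amyrin, where the summed macrophage markers were lowest, Tgfb1 lay between the other P1 libraries, while at P6 both Tgfb1 and the macrophage markers were lowest in β-amyrin. The part of macrophage RNA in this rise was not tested.

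Tgfb2, an isoform that needs betaglycan for efficient receptor binding, had 82.1, 64.4 and 80.0 CPM at P1 (vehicle, α-amyrin, β-amyrin) and 118, 78.6 and 99.6 at P6. The lowest P6 library, α-amyrin, lay below P1 vehicle and P1 β-amyrin, so the passages overlapped, but within each treatment P6 was the higher library. With treatment in the model Tgfb2 rose by 0.38 ± 0.06 (edgeR adjusted p = 0.00151). The antisense gene Gm29491, which overlaps Tgfb2, held counts equal to 5.51% to 7.09% of those of Tgfb2. No source used here says whether the counting used the strand.

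Tgfb3, the isoform known for its role in palate fusion, moved the other way. It had 356, 261 and 353 CPM at P1 and 263, 226 and 253 at P6, and the P1 α-amyrin library lay just under P6 vehicle. The fitted change was −0.37 ± 0.06 (edgeR adjusted p = 0.00177). Opposite-strand neighbours overlap it too, with counts equal to 15.5% to 17.8% (Gm48008), 8.98% to 10.6% (Gm37804) and 6.78% to 8.79% (Ttll5) of those of Tgfb3.

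Of the receptors, Tgfbr1, the type I kinase, had 82.5, 81.1 and 77.5 CPM at P1 and 112, 142 and 101 at P6. The P1 libraries lay within 5 CPM of each other, all P6 libraries were above them, and α-amyrin was the highest at P6. The fitted rise was 0.55 ± 0.08 (edgeR adjusted p = 0.00128). Tgfbr2, the type II receptor that binds ligand first, had 245, 318 and 231 CPM at P1 and 259, 325 and 289 at P6. Here the libraries sorted by compound more than by passage, with both α-amyrin libraries highest, and the change with passage of 0.14 ± 0.06 was not called (edgeR adjusted p = 0.0888).

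Tgfbr3, the co-receptor betaglycan, had 35.4, 75.0 and 41.0 CPM at P1 and 29.1, 43.7 and 38.8 at P6. The P1 α-amyrin library stood far above the other 5, which lay between 29.1 and 43.7 CPM and overlapped. The fitted fall of 0.39 ± 0.13 was called (log2, SE; edgeR adjusted p = 0.0326), and it is the weakest of the 9 calls. Without P1 α-amyrin it was −0.18 (adjusted p = 0.121), without P6 α-amyrin −0.18 (0.109), without P1 vehicle −0.43 (0.0579) and without P6 vehicle −0.43 (0.0547), so the call was lost each time. It was also lost with passage alone in the model (−0.45, adjusted p = 0.187) and with limma on log2(FPKM + 1) (−0.33, adjusted p = 0.109).

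The latent binding proteins held the largest changes with passage in both directions. Ltbp3, which binds latent TGF-beta and is known for its role in bone, had 247, 219 and 219 CPM at P1 and 463, 445 and 461 at P6. The lowest P6 library exceeded the highest P1 library by a wide margin, and the fitted rise was 1.00 ± 0.05 on the log2 scale (edgeR adjusted p = 1.17e-05).

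Ltbp4, known for elastic fibre assembly through fibulins, went the opposite way. Its levels were 58.6, 54.6 and 55.3 CPM at P1 and 28.7, 29.9 and 30.8 at P6. The libraries of each passage were tightly grouped and did not overlap, and the gene fell by 0.91 ± 0.06 (log2, SE; edgeR adjusted p = 3.68e-05). No other gene among the 55487 that the authors annotated overlaps Ltbp4, Tgfb1, Tgfbr1 or Tgfbr2.

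Ltbp1, a main carrier of latent TGF-beta in fibroblast matrix, had 470, 465 and 524 CPM at P1 and 592, 565 and 628 at P6, and rose by 0.29 ± 0.04 (edgeR adjusted p = 0.000859). Ltbp2, which binds fibrillin but not latent TGF-beta, had 952, 726 and 935 CPM at P1 and 1155, 999 and 1125 at P6, and rose by 0.34 ± 0.05 (edgeR adjusted p = 0.00133). In both genes all P6 libraries lay above all P1 libraries, by a smaller factor than in Ltbp3, and in Ltbp2 the α-amyrin library was the lowest at each passage. The antisense gene D030025P21Rik held counts equal to 9.09% to 9.62% of those of Ltbp2.

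**Figure D2:**
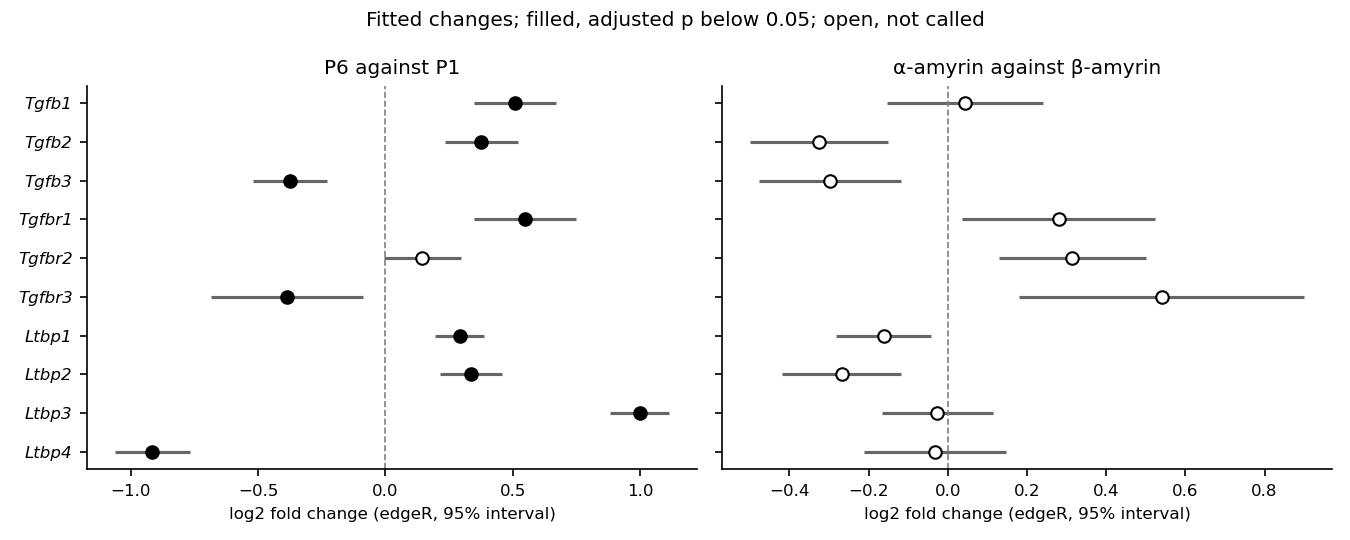
Fitted log2 fold changes of the 10 members (points) with 95% intervals (lines), P6 against P1 on the left and α-amyrin against β-amyrin on the right, on separate horizontal scales. Filled points have an edgeR adjusted p below 0.05: 9 of 10 on the left, 0 of 10 on the right, although 7 of the intervals on the right exclude 0.

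Within its family, each member was next expressed as a share of the summed FPKM, since this sets the genes side by side per length. Tgfb3 supplied most of the ligand mRNA in every library, 79.8% ± 1.21 at P1 (SD, n = 3) and 69.2% ± 1.19 at P6. Tgfb1 went from 8.96% ± 1.02 to 14.3% ± 1.56 and Tgfb2 from 11.3% ± 0.30 to 16.5% ± 1.93. Tgfbr2 was the main receptor at both passages, with 60.5% ± 0.87 and 59.0% ± 1.68. Tgfbr1 went from 24.4% ± 3.69 to 30.9% ± 2.54 of receptor FPKM and Tgfbr3 from 15.1% ± 3.86 to 10.1% ± 1.07, where the P1 values of Tgfbr3 were 11.7% in vehicle, 19.3% in α-amyrin and 14.2% in β-amyrin. Ltbp3 went from 13.3% ± 1.15 to 20.5% ± 0.71 of LTBP FPKM and Ltbp4 from 4.73% ± 0.41 to 1.89% ± 0.14, while Ltbp2 (57.2% ± 2.79 and 54.7% ± 1.27) and Ltbp1 (24.7% ± 2.06 and 22.9% ± 0.77) overlapped between passages. In a two-sided exact permutation test of 3 against 3 libraries, 7 shares gave p = 0.1, the smallest this design allows (0.143 after Benjamini-Hochberg adjustment over 10), and Tgfbr2, Ltbp1 and Ltbp2 gave p = 0.3.

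Summed over the family, ligand FPKM was 135, 102 and 129 at P1 (vehicle, α-amyrin, β-amyrin) and 115, 98.8 and 106 at P6, which overlapped (exact permutation p = 0.3). Receptor FPKM was 48.9, 66.4 and 47.2 at P1 and 54.5, 69.8 and 57.6 at P6, with the α-amyrin library highest at each passage and the passages overlapping (exact permutation p = 0.5). LTBP FPKM was 197, 170 and 194 at P1 and 252, 230 and 248 at P6, with every P6 library above every P1 library (187 ± 15.2 against 244 ± 11.6, SD, n = 3; exact permutation p = 0.1). The ratio of LTBP to ligand FPKM was 1.46, 1.66 and 1.50 at P1 and 2.19, 2.33 and 2.35 at P6. Without Ltbp2, the LTBP that does not bind latent TGF-beta, a version added after seeing the data, the ratio was 0.60, 0.76 and 0.63 at P1 and 0.96, 1.09 and 1.06 at P6. With or without Ltbp2 the ratio was higher in each P6 library than in any P1 library, but without it LTBP FPKM was below ligand FPKM at P1 and about level with it at P6.

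**Figure D3:**
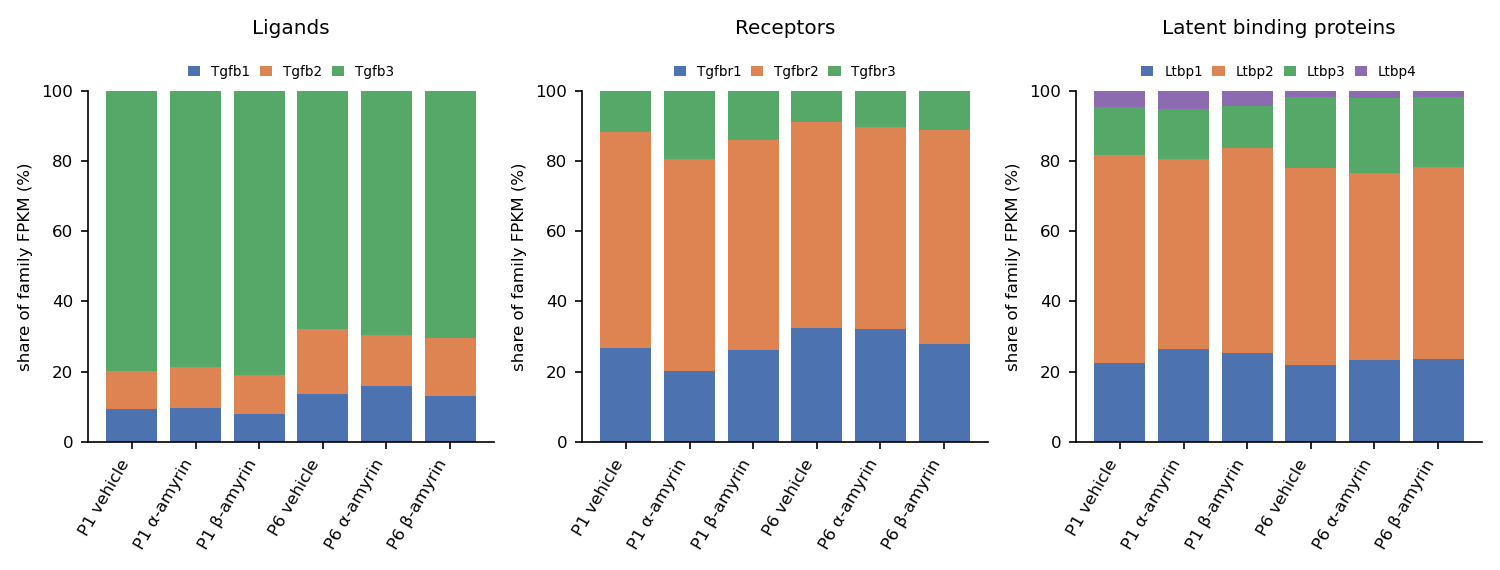
Share of each ligand, receptor and latent binding protein in the summed FPKM of its family (vertical axis, percent), with 1 stacked bar per library. Tgfb3 takes 78.6% to 81.0% of ligand FPKM in the P1 libraries and 67.9% to 70.3% at P6, and Ltbp3 takes 19.9% to 21.3% of LTBP FPKM at P6 against 12.0% to 14.3% at P1.

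The next question was what α-amyrin changed. In the additive edgeR fit no member passed an adjusted p below 0.05, where 0.0295% of all genes were called, and 5 members had an unadjusted p below 0.05, against 11.8% of all genes. These were Tgfbr3 and Tgfbr2, with higher levels, and Tgfb2, Tgfb3 and Ltbp2, with lower levels. DESeq2 called the same 5 of the 10 and 1.76% of the genes it tested.

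Tgfbr3 had the largest value, 0.86 ± 0.15 (95% interval 0.50 to 1.22; edgeR adjusted p = 0.146). Its log2 ratio of α-amyrin over vehicle was 1.08 at P1 and 0.59 at P6, from the libraries given above. The P1 ratio was the only one of any member in either compound and passage to reach 2-fold, a size that 0.481% of genes of at least 5 CPM reached in that pair, 0.361% with α-amyrin at P6, and 0.898% and 0.872% with β-amyrin at P1 and P6. In the same pair of P1 libraries 5 of the 10 fibroblast markers were higher with α-amyrin (Pdgfra, Thy1, Dcn, Lum and Vim) and 5 were lower. Their summed level was 25459 CPM with α-amyrin and 30022 with vehicle. Of the 9 mesothelial markers 8 were higher with α-amyrin in that pair and 1 was lower, with sums of 211 and 172 CPM. Of the 19 macrophage markers 11 were higher and 8 lower. Without P1 α-amyrin the fitted value of Tgfbr3 was 0.54 (edgeR adjusted p = 0.590). Whether the makeup of that culture bears on Tgfbr3 was not tested.

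Tgfbr2 had a fitted value of 0.36 ± 0.08 with α-amyrin (edgeR adjusted p = 0.201) and log2 ratios of 0.38 at P1 and 0.33 at P6, the most even pair of the members. Tgfbr1 differed between the passages, with ratios of −0.02 and 0.34. Of the ligands, Tgfb2 had −0.47 ± 0.07 (edgeR adjusted p = 0.102), with ratios of −0.35 and −0.58, and Tgfb3 had −0.33 ± 0.08 (edgeR adjusted p = 0.213), with −0.45 and −0.22. Tgfb1 was lower at P1 (−0.32) and level at P6 (−0.01). Ltbp2 had −0.30 ± 0.06 (edgeR adjusted p = 0.188), with ratios of −0.39 and −0.21, and the other LTBPs had ratios between −0.18 and 0.06. The 2 members higher at both passages were receptors, and the 6 lower at both were the 3 ligands and Ltbp1, Ltbp2 and Ltbp3. Among these 6, Tgfb1 at P6 (−0.01) and Ltbp1 at P1 (−0.02) were close to level. Over all genes 30.7% were higher and 28.0% lower at both. DESeq2's adjusted p was 0.000176 for Tgfbr3, 0.0011 for Tgfb2, 0.00847 for Ltbp2, 0.0113 for Tgfbr2 and 0.0209 for Tgfb3. edgeR also called these 5 without P1 β-amyrin and without P6 β-amyrin, fits in which calls over all genes rose to 1.82% and 1.56%. It called Tgfbr3 alone without P6 α-amyrin (1.13, adjusted p = 0.0456; 0.13% of all genes), and no member without P1 vehicle, P1 α-amyrin or P6 vehicle. Without P1 α-amyrin, Tgfb3 was −0.21 and Ltbp2 −0.21.

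**Figure D4:**
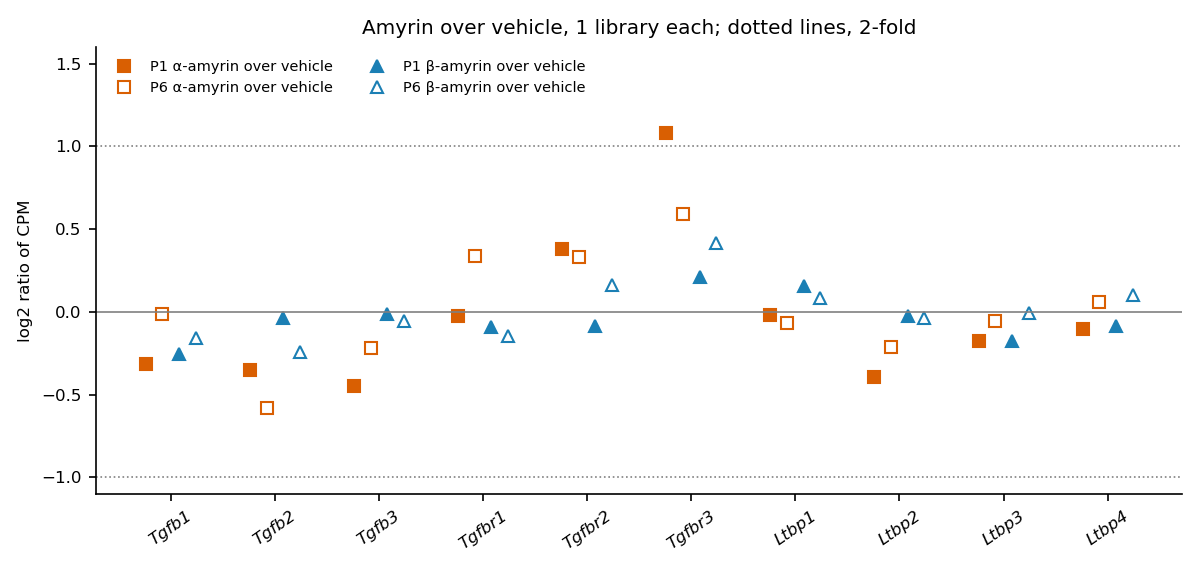
Log2 ratio of CPM of each amyrin library over the vehicle library of the same passage (vertical axis; prior count 2), squares for α-amyrin, triangles for β-amyrin, filled at P1 and open at P6, with dotted lines at 2-fold. Only Tgfbr3 with α-amyrin at P1 (1.08) passes a dotted line, and all β-amyrin ratios lie between −0.25 and 0.41.

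With β-amyrin the median absolute log2 change of the members was smaller, 0.10 against 0.23 with α-amyrin. Tgfb1 and Ltbp1 were the exceptions, with larger fitted values for β-amyrin than for α-amyrin (−0.16 and −0.04). No member was called by edgeR (0.0059% of all genes were) or by DESeq2 (0.802%), and 2 members, Tgfb1 and Ltbp1, had an unadjusted p below 0.05, against 10.3% of all genes. Tgfb1 had −0.21 ± 0.08 (edgeR adjusted p = 0.477), with log2 ratios of −0.25 at P1 and −0.16 at P6. The summed macrophage markers given above were also lower in β-amyrin than in vehicle at both passages, and their part in this value was not tested. Ltbp1 had 0.12 ± 0.05 (edgeR adjusted p = 0.487), with 0.16 and 0.09. Tgfbr3 was higher in both β-amyrin libraries, by 0.21 and 0.41, with a fitted value of 0.32 ± 0.15 (edgeR adjusted p = 0.530). Of the 10 members, 2 were higher (Tgfbr3 and Ltbp1) and 6 lower at both passages, where 30.4% and 28.4% of all genes were. Both amyrins were set against the same 2 vehicle libraries, so their ratios are not independent of each other.

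The direct comparison of the isomers, at the same dose and time, sets their libraries against each other and not against vehicle. Its p-values and intervals still use a spread estimated from all 6 libraries, the vehicle libraries included. This single pair of compounds was tested in the same fit over 16962 genes, and no member differed at an adjusted p below 0.05, where 0.059% of all genes did. At an unadjusted p below 0.05 there were 7 members, against 9.21% of all genes, and DESeq2 called 1, Ltbp2 (−0.26, adjusted p = 0.0461), against 0.871% of the genes it tested. The receptors were all higher with α-amyrin, by 0.54 for Tgfbr3 (95% interval 0.18 to 0.90; edgeR adjusted p = 0.376), 0.31 for Tgfbr2 (0.13 to 0.50; 0.308) and 0.28 for Tgfbr1 (0.04 to 0.52; 0.491). For Tgfbr3 the log2 ratio of the isomers was 0.87 at P1 and 0.17 at P6, so most of the difference lay in the P1 pair. Tgfbr1 showed the reverse, 0.07 and 0.48. No member reached 2-fold between the isomers, which 1.1% of genes of at least 5 CPM did at P1 and 0.673% at P6.

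Among the ligands, Tgfb2 was lower with α-amyrin than with β-amyrin by a fitted −0.33 (95% interval −0.50 to −0.15; edgeR adjusted p = 0.272) and Tgfb3 by −0.30 (−0.48 to −0.12; 0.313), in the pairs of both passages. For Tgfb1 the interval included 0 (0.04, −0.15 to 0.24). Ltbp2 (−0.27, −0.42 to −0.12) and Ltbp1 (−0.16, −0.28 to −0.04) were lower with α-amyrin at both passages, whereas the intervals of Ltbp3 (−0.17 to 0.11) and Ltbp4 (−0.21 to 0.15) included 0. Without the P6 β-amyrin library, edgeR called Tgfbr2 (0.45, adjusted p = 0.0100) and Tgfbr3 (0.77, 0.00684), and 2.22% of all genes. It called no member when any of the other 5 libraries was left out. Tgfbr3 was lowest without P1 α-amyrin (0.22, edgeR adjusted p = 0.948) and Tgfbr2 without P1 β-amyrin (0.18).

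Whether the amyrins acted differently at the 2 passages was tested with both isomers taken as 1 group. No member passed (edgeR adjusted p = 1.00 for all 10), none had an unadjusted p below 0.05 by edgeR, where 2.66% of all genes did, and DESeq2 called none. Over all genes, edgeR called 0.0% and DESeq2 0.124%. The intervals were wide, from −1.35 to 0.93 for Tgfbr3 (fitted value −0.21), so for that gene the interval takes in a difference of more than 2-fold. For Ltbp4, which was lower than vehicle in both amyrin libraries at P1 and higher in both at P6, the fitted difference was 0.18 (−0.12 to 0.48).

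Around the 10 members, 75 further genes of the pathway in 5 lists were examined. Of the 74 tested, 22 were higher at P6 and 28 lower in the edgeR fit. Over all genes 30.0% were higher and 29.1% lower, and the counts below are descriptions of each list with no test against that share. Of 16 tested genes of the activation list, which act on the processing, anchoring or release of latent TGF-beta, 6 were higher and 4 lower. The list also holds Emilin1, an inhibitor of precursor processing and not an activator, which was among those higher (0.46 ± 0.04). Thbs1 (thrombospondin, an activator of latent TGF-beta) rose by 1.00 ± 0.05, and Itgb5, a subunit of an activating integrin, rose by 0.92 ± 0.04. Fbn2, a fibrillin that holds LTBP complexes in microfibrils, fell by 1.88 ± 0.06. Nrros, a cell-surface anchor of latent Tgfb1 in macrophages and microglia, had 4.14, 3.87 and 0.80 CPM at P1 and 28.8, 37.1 and 26.1 at P6 (3.43 ± 0.30). At P1 Nrros was lowest in β-amyrin, the library in which the summed macrophage markers were lowest, and the part of macrophage RNA was not tested.

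Of 8 signal transducers, 2 were higher (Tab1, 0.40 ± 0.09, and Traf6, 0.34 ± 0.07, both of the SMAD-independent TAK1 branch) and 2 were lower. Smad4, the common partner of the receptor-activated SMADs, fell by 0.22 ± 0.05, a call lost without P1 vehicle (edgeR adjusted p = 0.0625) or P6 vehicle (0.0573). The number of transducers called lower was 1, not 2, with DESeq2, with limma on either FPKM scale and without each of the 6 libraries. Of 18 co-receptors and negative regulators, 3 were higher and 9 lower. The lower ones included Bambi, a pseudoreceptor (−0.62 ± 0.14), Pmepa1, which sequesters SMADs (−0.39 ± 0.06), and the TGF-beta-binding proteoglycan decorin, Dcn (−1.88 ± 0.10), whereas its relative Bgn, biglycan, rose by 0.33 ± 0.04.

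Of 24 genes that TGF-beta is known to induce in fibroblasts or other cells, 6 were higher at P6, 11 were lower and 7 were not called, with a median of −0.17. Fn1 (fibronectin, 1.33 ± 0.06) and Itga11 (a collagen receptor subunit, 1.27 ± 0.05) rose, and Postn (periostin, −1.25 ± 0.07) and Edn1 (endothelin, −1.41 ± 0.19) fell. With α-amyrin, Itga11 was the only one of the 74 genes that edgeR called. DESeq2, which called 1.76% of the genes it tested, called 7 targets lower. It also called lower 1 activation gene, 1 co-receptor or negative regulator and 1 gene of the activin branch described below. Itga11 had 190 CPM in P1 vehicle and 111 in P1 α-amyrin, 451 in P6 vehicle and 288 in P6 α-amyrin. Its fitted fall was 0.71 ± 0.06 (log2, SE; edgeR adjusted p = 0.0424). Leaving out either vehicle library or P1 α-amyrin ended that call (adjusted p = 0.0766, 0.141 and 0.309), as did limma on log2(FPKM + 1) (0.233).

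The same 24 targets were mostly lower in α-amyrin than in vehicle, 20 of 24 at P1 (median log2 ratio −0.27) and 19 of 24 at P6 (−0.21), where the median over all genes was 0.00 and 0.02. With β-amyrin 12 and 13 of 24 were lower (medians −0.02 and −0.02). These are counts over single pairs of libraries, and no test was made of the list. The list was chosen with earlier results of these data known. The number of targets called lower with α-amyrin was 1 with edgeR, 7 with DESeq2, 12 with no filter on low counts and 0 with limma on either FPKM scale, where calls over all genes were 0.0295%, 1.76%, 1.55% and 0%. It was 9 without P1 β-amyrin, 8 without P6 β-amyrin and 3 without P6 α-amyrin (1.82%, 1.56% and 0.13% of all genes), and 0 without each of the other 3 libraries.

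**Figure D5:**
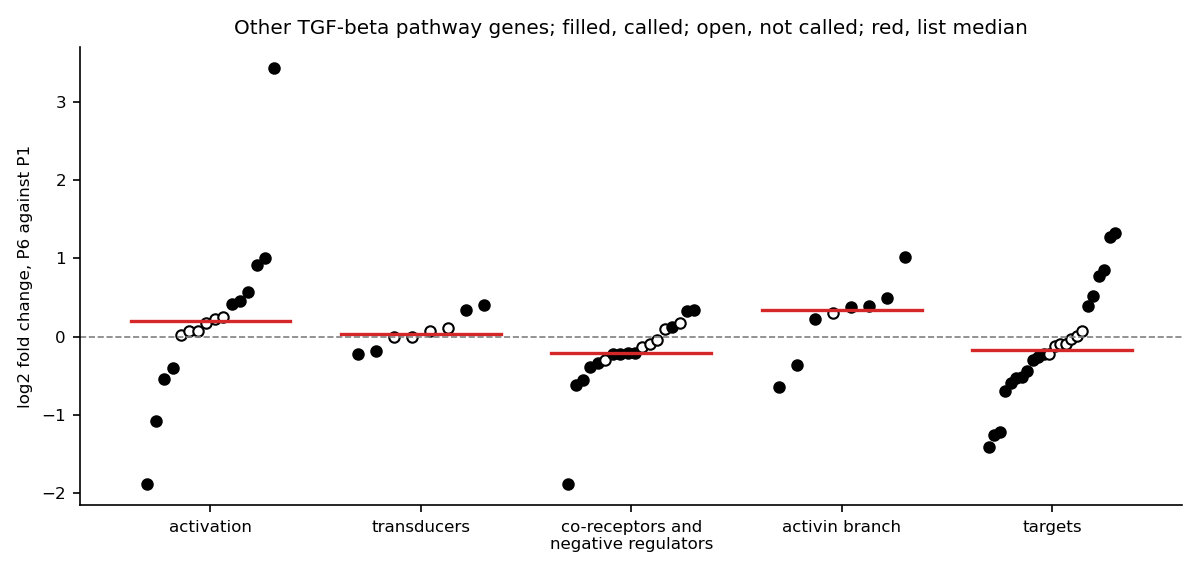
Fitted log2 fold change of P6 against P1 (vertical axis) for the 74 tested genes of the 5 other TGF-beta pathway lists, sorted within each list, with filled points for an edgeR adjusted p below 0.05, open points for genes not called and a red line at each list's median. The highest point is Nrros (3.43), and the target genes reach from −1.41 (Edn1) to 1.33 (Fn1).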

How the data were processed

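The authors deposited 1 table of raw read counts per gene and 1 of FPKM for the 6 libraries. The submitters' processing notes list featureCounts 1.6.3, SAMtools 1.9 and HISAT2 2.1.0, as well as Trimmomatic 0.38 and FastQC 0.11.7, on mm10. Per the labels' protocols, libraries were made from polyadenylated RNA with a directional kit. No source used here gives the strand setting of the counting or how the authors computed the deposited FPKM values.

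Counts were tested with edgeR 4.0.16 (R 4.3.3; quasi-likelihood, TMM, genes kept by filterByExpr with passage as group, 16962 of 55487) on passage plus treatment over all 6 libraries, which leaves 2 residual degrees of freedom. Calls used a Benjamini-Hochberg adjusted p below 0.05 over all tested genes. The passage-by-amyrin difference was an interaction term with the isomers pooled. Ratios of 2 libraries used CPM with a prior count of 2 and no test, and a change by size meant at least 2-fold with at least 5 CPM in either library. DESeq2 1.42.0 and limma 3.58.1 on log2(FPKM + 1) or log2(FPKM + 0.1) were alternatives, as were other scalings and filters and leaving out each library. On simulated counts with a passage effect, the additive edgeR fit was run for passage and α-amyrin, and limma on log2 CPM for passage. DESeq2 and the other comparisons were not run on simulated counts. Intervals are 95% and cover only the spread among these libraries.

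The 10 members were taken by symbol. From each pathway list the text names the 3 genes with the smallest adjusted p in P6 against P1. It also names the 2 with the largest absolute change there, and any that edgeR called in a compound comparison. The members and lists were chosen with earlier results of these data known. Promoter windows are from RefSeq. Gene coordinates and overlaps are from the annotation that the authors deposited with the counts, and merged exon lengths are from GENCODE.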

Additional observations from a re-analysis of the deposited data

How the results depend on the processing

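Direction and call with passage were the same in 123 of 130 alternative values for the members, and the other 7, all for Tgfbr3, kept the direction but lost the call. With α-amyrin against vehicle, 0 members were called with edgeR as reported, 5 with DESeq2, 5 with no filter on low counts, and 0 to 5 when each library was left out. For α-amyrin against β-amyrin, the counts were 1 with DESeq2, 5 with no filter and 0 to 2 when each library was left out. The 1 member changed by size in the P6 over P1 vehicle pair, and the 1 in the α-amyrin pair, became 0 with the ratio of FPKM + 1.

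Some uncalled values near 0 changed sign. With α-amyrin against vehicle, Ltbp4 (−0.03) was 0.011 and 0.0151 with limma on log2(FPKM + 1) and log2(FPKM + 0.1), and −0.11 to 0.0669 over the left-out libraries, and Tgfbr1 was −0.0388 to 0.35 over them. For α-amyrin against β-amyrin, Ltbp3 was 0.0062 with library totals only, 0.0176 and 0.0184 with limma, and −0.077 to 0.029 over the left-out libraries. Ltbp4 was 0.0018 with library totals, 0.0096 and 0.0098 with limma, and −0.0873 to 0.0185 over the left-out libraries, and Tgfb1 was −0.0884 to 0.17 over them. The passage-by-amyrin value of Tgfbr3 (−0.21) was −0.60 to 0.29 over the left-out libraries, highest without P1 α-amyrin. The cause was not tested.

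Over all genes, α-amyrin calls numbered 5 with edgeR, 206 with DESeq2, 464 with no filter and 0 with limma. For β-amyrin, edgeR called 1, DESeq2 115 and the fit with no filter 404. For the isomers the counts were 10, 122 and 484 in the same order. For the passage-by-amyrin difference they were 0 with edgeR, 21 with DESeq2 and 159 with no filter. With limma that difference gave 0 calls on log2(FPKM + 1) and 845 on log2(FPKM + 0.1). Shares kept their direction with counts per kilobase of merged exons, an alternative chosen after seeing the data because the files give no gene length. The planned version with the files' own lengths was not run. The passage-by-amyrin term could not be fitted without either vehicle library. No paired analysis was possible because the labels give no replicate numbers, but the treatment term already sets each P6 library against the P1 library of the same treatment. Passage alone in the model changed no call of a member but that of Tgfbr3. With no replicate of any condition, a compound value that was not called does not show that the gene was unchanged.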

Other observations

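The activin branch is a related ligand and receptor system that uses Smad2 and Smad3 as well. Of 8 genes tested, 5 were higher at P6 in the edgeR fit, 2 lower and 1 not called, where 30.0% of all genes were higher and 29.1% lower, and the number higher was 3 or 2 with limma on the 2 FPKM scales. Gdf11, an activin-like ligand, had 30.6 to 33.6 CPM at P1 and 41.5 to 43.2 at P6 and rose by 0.39 ± 0.06 (log2, SE). The type I receptor Acvr1b rose by 0.38 ± 0.07. The type II receptor Acvr2b rose by 1.01 ± 0.23 from a level of 0.84 to 0.96 CPM at P1, a call lost with limma on log2(FPKM + 0.1) (adjusted p = 0.0886). Fst, follistatin, which neutralises activins, had 144, 165 and 192 CPM at P1 and 116, 91.7 and 111 at P6 and fell by 0.65 ± 0.10. No gene of this branch was called for either amyrin in the edgeR fit, whereas DESeq2 called 1 lower with α-amyrin.

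Among 11714 genes of at least 5 CPM on average, those nearest to each member over the 6 libraries were found by the distance between mean-centred log2 CPM profiles, a description over 6 points that share their 2 passages. Ltbp3 had the closest match, Tmem37 at a distance of 0.044 (5.43 to 6.14 CPM at P1 and 11.1 to 11.4 at P6). Tgfbr1 was nearest to Mob3c (0.056), Ltbp1 to Cgrrf1 (0.065), Tgfb3 to Dpysl3 (0.074), Tgfb1 to Tanc2 (0.079), Ltbp4 to Nip7 (0.106), Tgfb2 to Zfp971 (0.139) and Tgfbr2 to Scara3 (0.153). For Ltbp2 the nearest was D030025P21Rik (0.068), the gene antisense to it. Tgfbr3 had the most distant match, Mme at 0.320, the cell-surface protease neprilysin, with 25.0, 52.2 and 35.3 CPM at P1 and 23.2, 30.7 and 25.7 at P6, so P1 α-amyrin was the highest library there too.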
